A study of Mus musculus with 4 samples.

Results

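Transcription factors that promote the making of glia were followed in cultured mouse astrocytes in which Phf8 had been targeted. The group comprised 9 of the 55421 genes listed, chosen by symbol from knowledge of the field: the nuclear factor I genes Nfia, Nfib, Nfic and Nfix, the BTB zinc finger gene Zbtb20, the ETS genes Etv1, Etv4 and Etv5 (the PEA3 group), and the orphan nuclear receptor gene Nr2e1, also called Tlx. Earlier results of these data were known when the genes were chosen. The cells came from neural stem cells of C57BL/6J origin that had been turned into astrocytes in a medium with fetal bovine serum. They carried a lentivirus with either a control short hairpin RNA (shRNA, a small RNA precursor that silences its target) or an shRNA against Phf8, the gene of a Jumonji-type enzyme that removes methyl groups from histones. Each group had 2 libraries of ribosomal RNA-depleted total RNA. The labels number the libraries as replicates 1 and 2 but do not say whether these were separate cultures or infections, nor whether 1 or several hairpins were used.

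Nuclear factor I proteins bind DNA as dimers and switch neural progenitors from making neurons to making astrocytes. In the developing brain NFIA acts beside SOX9, and ZBTB20 acts with both in astrocyte formation, where it represses the neuronal gene Pou3f2. Etv1, Etv4 and Etv5 are transcribed in response to fibroblast growth factor (FGF) signalling through the kinase ERK, and the repressor Capicua keeps them low when ERK is quiet. NR2E1 keeps neural stem cells undifferentiated and represses genes such as Gfap and Cdkn1a together with the demethylase KDM1A and histone deacetylases.

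Reads assigned to genes numbered 36839530 to 44724759 per library. Levels are CPM (reads scaled to library size, with TMM factors), and ± marks the SD of n = 2 libraries unless SE is written. Phf8 itself stood at 53.3 and 53.0 CPM with the control hairpin and at 44.3 and 42.3 CPM with the hairpin against it, so its transcript fell by 18.5% (log2 fold change -0.30 ± 0.06 SE, adjusted p = 1.72e-06 by the quasi-likelihood test of edgeR, the test used throughout). Of 21042 genes tested, 10965 changed, 5225 higher and 5740 lower, so a change by itself sets no gene apart. Higher genes made up 47.7% of these calls with TMM and 58.0% with upper-quartile scaling (6640 higher and 4811 lower). All p-values reflect nothing but the spread of these 4 libraries, which may be technical.

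All 9 genes passed the filter on low counts, with at least 146 reads in every library. The test called 4 of them higher (Etv4, Etv1, Nr2e1 and Nfic) and 4 lower (Etv5, Nfia, Zbtb20 and Nfib), and Nfix did not pass. The background was 24.8% of all tested genes called higher, 27.3% lower and 52.1% in either direction. Among protein-coding genes that averaged 5 CPM or more it was 64.1% in either direction, 26.9% higher and 37.2% lower. The groups did not overlap for any of the 9 genes (5 higher, 4 lower), as for 73.9% of all genes tested (37.2% higher, 36.7% lower). The median log2 fold change of the 9 was 0.11 and that of all genes 0.01. The median absolute value was 0.57, against 0.32 over all genes tested.

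**Figure D1:**
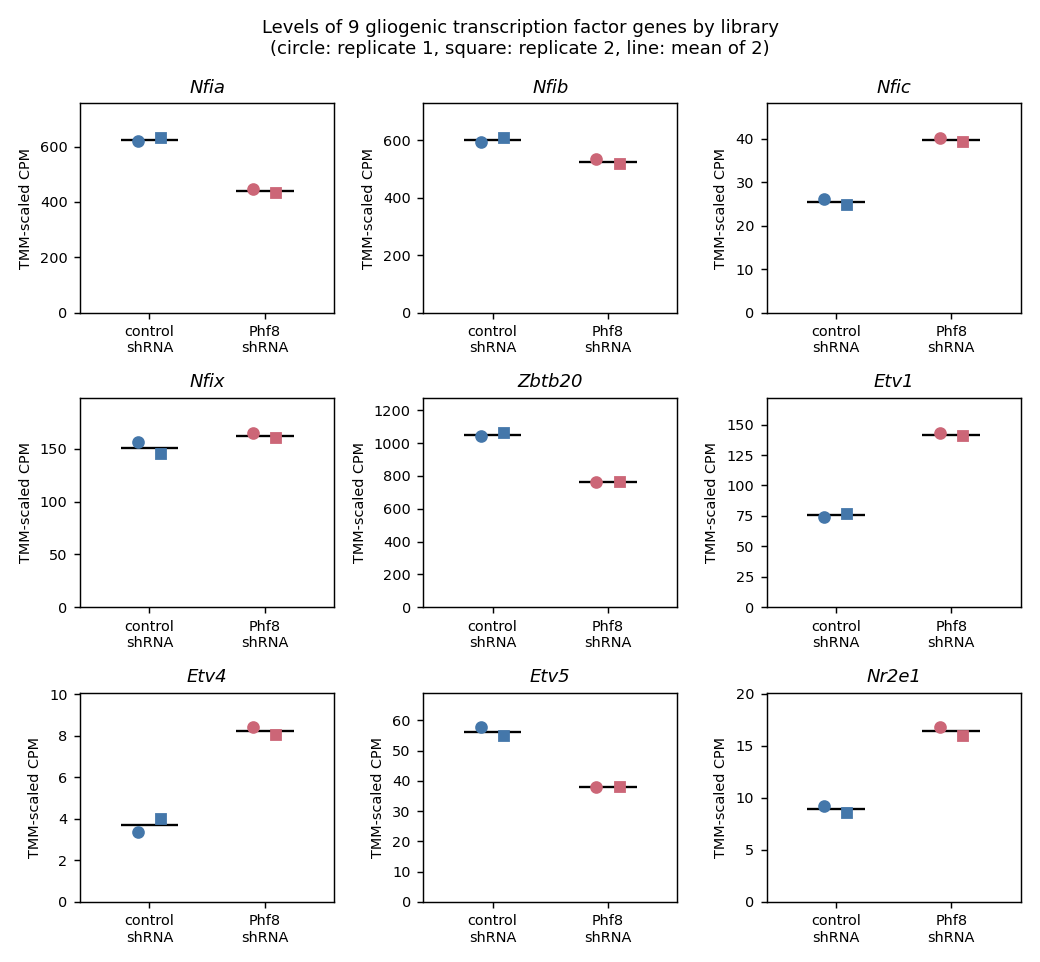
TMM-scaled CPM of each of the 9 genes on a linear axis from 0, with 1 point per library and a line at the mean of 2. Control and Phf8 shRNA libraries do not overlap in any panel, and the 2 groups of Nfix lie close, at 145 to 156 CPM against 160 to 165 CPM.

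The nuclear factor I genes split. Nfia, which starts gliogenesis in the spinal cord and forebrain, had 619 and 630 CPM in control cells and 448 and 432 CPM after Phf8 shRNA. Both Phf8 shRNA libraries lay well below both control libraries, and Nfia fell by 29.6% (log2 fold change -0.51 ± 0.06 SE, adjusted p = 1.72e-16, edgeR). Nfib, which overlaps with Nfia in function, had 594 and 607 CPM in control cells and 535 and 517 CPM after Phf8 shRNA. Its decrease was the smallest of the called members, at a log2 fold change of -0.19 ± 0.06 (SE) (adjusted p = 0.00343, edgeR). That call was lost without control replicate 2 (log2 fold change -0.17, adjusted p = 0.0696, edgeR) and with upper-quartile scaling (-0.11, adjusted p = 0.0528, edgeR).

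Nfic, a more widely expressed family member, moved the other way. It had 26.1 and 24.8 CPM in control cells and 40.1 and 39.2 CPM after Phf8 shRNA. This was a rise of 1.56-fold, or a log2 fold change of 0.64 ± 0.06 (SE) (adjusted p = 7.88e-23, edgeR). Nfix, which acts in late progenitors and postnatal stem cells, had 156 and 145 CPM in control cells and 165 and 160 CPM after Phf8 shRNA. The higher control library lay close to the lower Phf8 shRNA library, and the log2 fold change of 0.11 ± 0.06 (SE) did not pass (adjusted p = 0.087, edgeR). It passed with upper-quartile scaling (0.19, adjusted p = 2.64e-04, edgeR) and without Phf8 shRNA replicate 2 (0.14, adjusted p = 0.0292, edgeR).

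**Figure D2:**
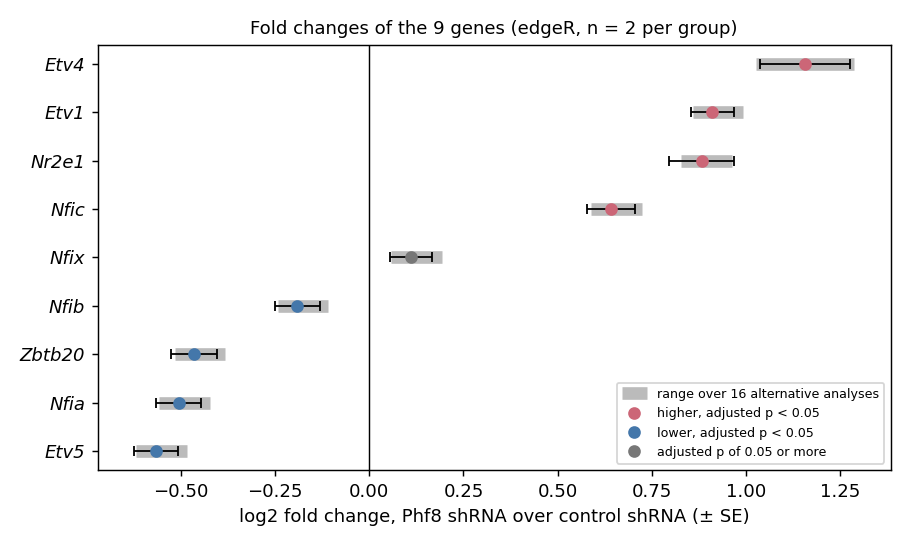
Log2 fold changes of Phf8 shRNA over control shRNA on the horizontal axis, with SE bars, for the 9 genes ordered by size, and grey bars for the range over 16 alternative analyses. The values run from -0.57 for Etv5 to 1.16 for Etv4, and no grey bar crosses 0.

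These unequal changes shifted the make-up of the family, which was computed within each library and so does not depend on the scaling between libraries. Per kilobase of annotated exon, Nfia supplied 46.7% and 47.5% of the summed reads of the 4 genes in control cells and 39.0% and 38.9% after Phf8 shRNA. The Nfia share thus dropped by 8.11 percentage points on average. Nfix supplied 17.4% and 16.2% in control cells and 21.3% and 21.4% after Phf8 shRNA, a gain of 4.51 points. Nfic had 3.23% and 3.06% in control cells and 5.74% and 5.81% after Phf8 shRNA, a gain of 2.63 points. The share of Nfib was almost level, at 32.6% and 33.3% in control cells and 33.9% after Phf8 shRNA. Groups did not overlap in any of these shares, and in an exact two-sided permutation test each gave p = 0.333, the smallest that 2 against 2 libraries allow. The summed level of the family was 121.7 and 121.9 CPM per kilobase in control cells and 105 and 102 CPM per kilobase after Phf8 shRNA.

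Zbtb20, which encodes a repressor that promotes astrocyte formation and represses other fates, was the member with the most reads, spread over 30730 bases of annotated exons. It had 1041 and 1062 CPM in control cells and 764 and 760 CPM after Phf8 shRNA. Both control libraries stood above both Phf8 shRNA libraries, with replicates within a group close to each other. Zbtb20 fell by 27.5% (log2 fold change -0.46 ± 0.06 SE, adjusted p = 4.41e-13, edgeR). The decreases of Nfia and Zbtb20 were thus of like size, and the difference between them was not tested.

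The PEA3 group also split, with Etv1 and Etv4 higher and Etv5 lower. Etv1 had 74.0 and 76.9 CPM in control cells and 143 and 140.5 CPM after Phf8 shRNA. It rose 1.88-fold, with a log2 fold change of 0.91 ± 0.06 (SE) (adjusted p = 1.97e-57, edgeR). Etv4, the namesake PEA3, was the least abundant member. It had 3.38 and 4.01 CPM in control cells and 8.395 and 8.04 CPM after Phf8 shRNA, from 146 to 363 reads per library. Its rise of 2.23-fold (log2 fold change 1.16 ± 0.12 SE, adjusted p = 2.67e-21, edgeR) was the largest change of the 9 and exceeded in size the changes of 88.5% of all genes tested.

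Etv5, which acts in the same FGF response and in neural progenitors becoming glia, had 57.7 and 54.8 CPM in control cells and 37.97 and 38.03 CPM after Phf8 shRNA. It fell by 32.4% (log2 fold change -0.57 ± 0.06 SE, adjusted p = 9.12e-21, edgeR). Within each library there were 1.28 and 1.40 Etv1 reads per Etv5 read in control and 3.77 and 3.69 in Phf8 shRNA cells. Per kilobase of exon, Etv5 supplied 67.9% and 65.4% of the summed reads of the group in control cells and 40.7% and 41.3% after Phf8 shRNA. The share of Etv1 went from 26.9% and 28.3% to 47.4% and 47.1%. Etv4 held 5.25% and 6.32% in control cells and 11.9% and 11.5% after Phf8 shRNA. Summed over the group, control cells had 20.7 and 20.4 CPM per kilobase. After Phf8 shRNA the sum was 22.7 and 22.4 CPM per kilobase. On this scale, which rests on the exonic lengths, the sum differed far less than its parts. In reads not divided by length, Etv1 supplied 54.8% and 56.7% of the group in control cells and 75.5% and 75.3% after Phf8 shRNA. A sum of such reads would thus weigh the rise of Etv1 more. The exact permutation p of each share was again 0.333.

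**Figure D3:**
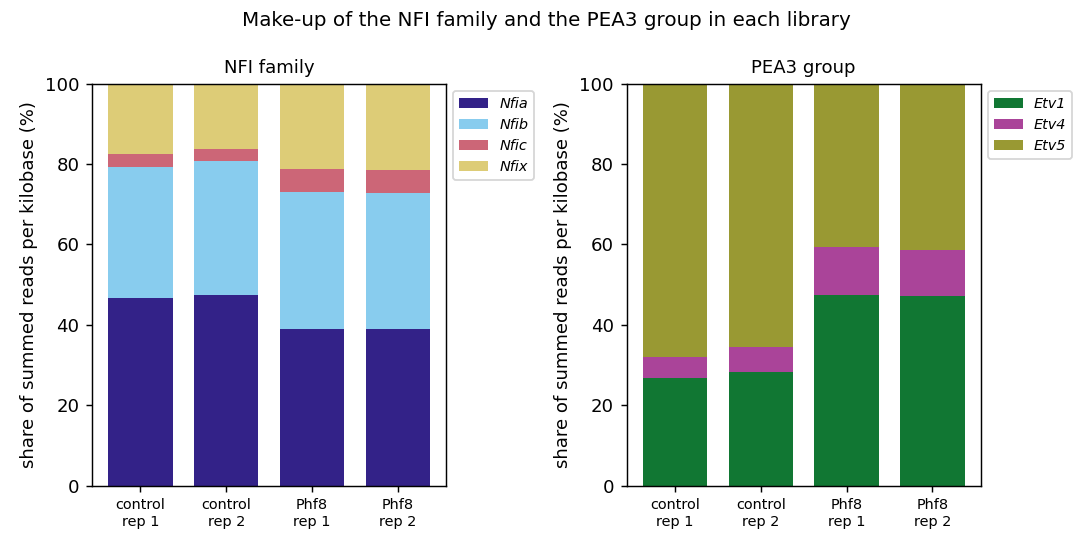
Stacked bars of the share of each gene in the summed reads per kilobase of its family, in percent, for each of the 4 libraries. Nfia gives way to Nfix and Nfic in the left panel (47.1% to 39.0% on average), and Etv5 gives way to Etv1 and Etv4 in the right panel (66.6% to 41.0%).

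Nr2e1, the stem cell receptor gene, was also higher. It had 9.22 and 8.53 CPM in control cells and 16.7 and 15.96 CPM after Phf8 shRNA, with 349 to 724 reads. It rose 1.84-fold, with a log2 fold change of 0.88 ± 0.09 (SE) (adjusted p = 1.96e-23, edgeR). The replicates of both groups lay close together, far from the other group.

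The fitted spread between replicates was small, since the common biological coefficient of variation came to 3.64%. When that coefficient was set to 0.2, Etv4, Etv1 and Nr2e1 still passed (adjusted p = 0.00209, 0.015 and 0.0234, edgeR's likelihood ratio test), and the 4 lower genes and Nfic did not, nor did the decrease of Phf8 itself (adjusted p = 0.639, same test), while 15.7% of all genes passed. At 0.4 none of the 9 passed, nor did Phf8, and 3.85% of all genes did. The share of all genes called in either direction was 51.8% with DESeq2 size factors in edgeR, 52% without mitochondrial and the 20 most abundant genes, 52.1% with a robust fit, 51.1% with library size alone and 54.4% with upper-quartile scaling (31.6% higher, 22.9% lower). It was 31.1% without the filter on low counts, 62% with a filter of 1 CPM in 2 libraries, 51.9% with the replicate number as a block, 51.7% with limma-voom and 32.4% with DESeq2. Without control replicate 1 or 2 it was 41.8% or 41.5%, and without Phf8 shRNA replicate 1 or 2 it was 47% or 44.4%.

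Compared per kilobase of annotated exon, the members covered a wide range. In the control libraries Nfia was highest at 57.4 ± 0.714 CPM per kilobase, followed by Nfib at 40.1 ± 0.631, Zbtb20 at 34.2 ± 0.483 and Nfix at 20.5 ± 1.06. Etv5 followed at 13.7 ± 0.499 CPM per kilobase, then Etv1 at 5.68 ± 0.151, Nfic at 3.84 ± 0.142, Nr2e1 at 2.39 ± 0.132 and Etv4 at 1.19 ± 0.144. No neighbours in this order overlapped between their libraries. With Phf8 shRNA the order was kept except that Etv1, at 10.7 ± 0.146 CPM per kilobase, stood above Etv5 at 9.26 ± 0.0096. All annotated exons of a gene were counted in its length, so genes with many alternative exons, such as Zbtb20, may be placed too low. In CPM not divided by length, Etv1 stood above Etv5 in both groups.

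**Figure D4:**
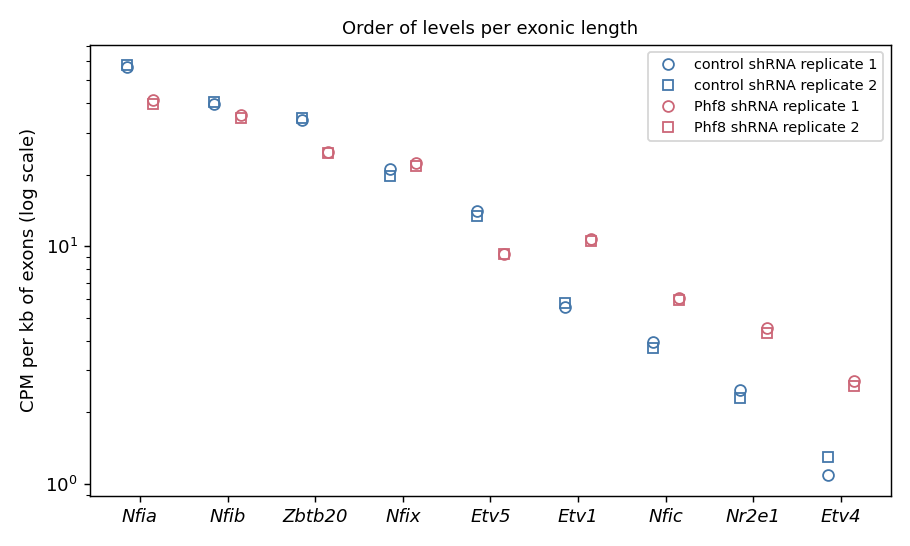
Levels per kilobase of annotated exon on a log axis, for the 9 genes ordered by control level, with circles for replicate 1 and squares for replicate 2. Nfia leads at about 57.4 CPM per kilobase in control, Etv4 is last at 1.19, and Etv1 and Etv5 change places between the groups.

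The stretches before the RefSeq start sites of Etv1, Etv5 and Nr2e1 are shown so that the sequence at genes that rose (Etv1 and Nr2e1) can be read beside that at one that fell (Etv5). They come from RefSeq (GRCm38.p6), which had entries for 7 of the 9 genes, and only the entries of these 3 start within 1000 bases of the deposited gene end. These starts lie 702 (Etv1), 149 (Etv5) and 42 (Nr2e1) bases inside the deposited genes. The stretches are limited to bases outside every annotated exon. The whole Etv1 stretch thus lies within the deposited Etv1 gene, between its annotated exons, and not before its deposited start. The Etv1 stretch is chr12:38779832-38780081 on the plus strand, the Etv5 stretch chr16:22439720-22439820 on the minus strand and the Nr2e1 stretch chr10:42583633-42583821 on the minus strand. Each is written 5′ to 3′ on the strand of the gene. Capitals mark TTGGC, an arm of the full NFI site, read on the opposite strand.
Etv1: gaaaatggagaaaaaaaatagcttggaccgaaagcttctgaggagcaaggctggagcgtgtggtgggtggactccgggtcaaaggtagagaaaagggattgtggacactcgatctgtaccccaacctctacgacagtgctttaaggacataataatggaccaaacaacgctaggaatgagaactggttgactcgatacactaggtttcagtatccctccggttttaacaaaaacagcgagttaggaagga
Etv5: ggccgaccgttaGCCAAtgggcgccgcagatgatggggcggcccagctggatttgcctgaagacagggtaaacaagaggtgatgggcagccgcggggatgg
Nr2e1: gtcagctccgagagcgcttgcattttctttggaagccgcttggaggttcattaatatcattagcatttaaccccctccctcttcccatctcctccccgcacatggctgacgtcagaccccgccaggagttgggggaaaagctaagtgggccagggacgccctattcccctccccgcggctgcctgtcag
The 250 bases before the start were searched on both strands for the ETS motif CCGGAA, the NFI site TTGGC and the NR2E1 site AAGTCA, each counted by itself whether or not it overlapped another. Among the 7 genes with an entry, Etv5 held 2 NFI arms, 238 and 111 bases before the RefSeq start. The first of these arms is in the stretch above, and the second lies inside the deposited Etv5 gene. None of the 7 genes held the full NFI site in its window. The windows of Etv1 and Nr2e1 held none of the 3 motifs. Nor did those of Nfia, Nfic, Nfix and Zbtb20, but these lie 20262 bases or more from the deposited gene ends and so describe another start site. Of 32851 such windows, 41.5% held the NFI arm, 12% the ETS motif and 13.1% the NR2E1 site. The full NFI site was in 12 of these windows. The Nr2e1 stretch is the whole gap of 189 bases between Nr2e1 and Ostm1, a lysosomal membrane protein gene read in the opposite direction. Ostm1 had 46.5 and 46.7 CPM in control cells and 49.8 and 48.6 CPM after Phf8 shRNA, and its log2 fold change of 0.08 ± 0.06 (SE) did not pass (adjusted p = 0.260, edgeR).

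All 9 genes are protein-coding in GENCODE M21 of the mm10 build, with the same gene ends there as in the deposited files. Nfia (ENSMUSG00000028565) runs from 97772734 to 98118874 on chromosome 4, and Nfib from 82290173 to 82705750 on the same chromosome. Nfic spans 81396186 to 81455635 on chromosome 10, where Nr2e1 also lies, from 42561963 to 42583632. Nfix spans 84699876 to 84800344 on chromosome 8. Zbtb20 (42875881 to 43642602) and Etv5 (22381309 to 22439719) share chromosome 16, Etv1 spans 38779380 to 38870484 on chromosome 12 and Etv4 101769742 to 101785371 on chromosome 11. Exons of other genes covered at most 1.86% of the exonic length of a member, in Nfix by G430095P16Rik on the opposite strand, and there it had a mean of 0.787 CPM in control cells and 0.99 CPM after Phf8 shRNA.

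Genes that NFI proteins act with or are reported to act on went in both directions. Of 15 tested, 4 rose and 9 fell, with a median log2 fold change of -0.40 against 0.01 over all genes. Beside this and the later list and marker counts stand the shares over all tested genes. These were 24.8% called higher, 27.3% lower and 52.1% in either direction. Among protein-coding genes averaging 5 CPM or more, 64.1% were called in either direction. Gfap, the astrocyte filament gene, fell 3.39-fold from 3971 ± 152 to 1172 ± 208 CPM. Apcdd1, which encodes a Wnt inhibitor and is a reported NFIA target, fell 3.05-fold from 23.9 ± 1.12 to 7.86 ± 0.590 CPM. The receptor gene Fgfr3 fell 1.90-fold from 166 ± 8.42 to 87.5 ± 2.03 CPM. Fabp7, the fatty acid binding protein gene of radial glia whose promoter NFI binds, rose 2.89-fold from 419 ± 3.78 to 1209 ± 101 CPM. Mmd2 and Zcchc24, also on the list and named after their values were seen, rose 1.21-fold and 1.17-fold. The lower genes of the list thus included the one most abundant in control cells, and the rise of Fabp7 was the largest of the list.

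Output genes of the FGF-ERK route, which are known to follow the same signal as the PEA3 group, went in both directions. Of 15 tested, 4 rose and 9 fell (5 and 6 with upper-quartile scaling), with a median of -0.27. Spry2, an inhibitor of the route, rose 1.67-fold from 46.2 ± 1.3 to 77.3 ± 0.0457 CPM. Il17rd, another inhibitor, rose 1.63-fold from 25.4 ± 0.272 to 41.4 ± 0.0830 CPM. Other inhibitors of the list, named after their values were seen, did not rise. Spry1, Spry4, Spred3, Dusp4 and Dusp6 fell, from 1.14-fold for Spred3 to 2.04-fold for Dusp6, and Spred1 and Spred2 did not pass. The phosphatase gene Dusp5 fell 4.51-fold from 9.93 ± 0.0227 to 2.18 ± 0.349 CPM, and Phlda1 fell 2.42-fold from 7.0 ± 0.848 to 2.90 ± 0.247 CPM. Of 8 genes listed as regulators of PEA3 group repression and turnover, 3 rose and 2 fell, with a median of 0.08. Cic, which encodes Capicua and was named for its role after its value was seen, did not pass (log2 fold change -0.03), and Cop1, whose product marks PEA3 proteins for breakdown, rose from 78.4 ± 3.28 to 90.3 ± 0.485 CPM. The Tribbles genes Trib2 and Trib3 rose 2.12-fold (73.6 ± 0.303 to 156 ± 3.15 CPM) and 3.31-fold (0.272 ± 0.0396 to 0.910 ± 0.0541 CPM), and Trib1 fell 1.97-fold from 16.4 ± 0.123 to 8.33 ± 0.913 CPM.

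The rest of the ETS family was mostly lower by small amounts. Of 23 genes, 14 passed the filter, and of these 1 rose, 8 fell and 5 did not pass, with a median of -0.25. The count of higher genes ranged over 0, 1 and 2 with library size, TMM and upper-quartile scaling. Ets2, which like Etv5 responds to ERK, fell 1.76-fold from 17.1 ± 0.355 to 9.72 ± 0.469 CPM. Elk3, Elf1 and Gabpa fell 1.34-fold, 1.27-fold and 1.2-fold. No other ETS gene that was called approached the rise of Etv1 or Etv4, since Elk1, the 1 that rose and named after its value was seen, had a log2 fold change of 0.17.

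Among other transcription factors of gliogenesis and progenitors, 14 of 27 rose and 10 fell, with a median of 0.23. Hes5, an effector of Notch, rose 5.64-fold from 3.05 ± 0.389 to 17.2 ± 0.138 CPM. The other Notch effectors of the list, Hes1 and Hey1, fell 2.43-fold and 1.53-fold and were named after their values were seen. Sox8, a relative of Sox9, rose 2.66-fold from 39.4 ± 1.65 to 105 ± 0.734 CPM. Id3, a target of BMP signalling, fell 5.11-fold from 28.8 ± 0.811 to 5.56 ± 1.55 CPM, and the stress-induced Atf3 fell 4.09-fold from 20.2 ± 0.714 to 4.90 ± 0.884 CPM. Sox9, also named after its value was seen, is the partner of NFIA and a member of both this list and the NFI list. It had 289 and 285 CPM in control cells and 228 and 206 CPM after Phf8 shRNA (log2 fold change -0.40 ± 0.06 SE).

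Known or candidate targets of ZBTB20 repression, listed with 2 of its relatives, had no lower call. Of 9 tested, 6 rose and 0 fell by edgeR's quasi-likelihood test, and the median was 0.25. Over all tested genes 24.8% were called higher and 27.3% lower, and the list was chosen with earlier results of these data known. At an unadjusted p under 0.05, 0 members were lower, and DESeq2 called 0 lower. The neuronal factor gene Pou3f2 had 48.8 ± 0.483 CPM in control cells and 66.0 ± 0.825 CPM after Phf8 shRNA, a rise of 1.35-fold. Bcl11b and Cux2, factors of cortical neurons, rose 2.13-fold (8.97 ± 0.587 to 19.2 ± 1.21 CPM) and 1.97-fold (13.8 ± 0.984 to 27.2 ± 0.689 CPM), and Rorb rose 1.46-fold from 88.5 ± 0.487 to 129 ± 4.95 CPM. Of the 3 that did not pass, the cortical neuron gene Tbr1 had a log2 fold change of 0.11 and the relative Zbtb45 0.18, while Zbtb18 was near 0. These 3 were named after their values were seen.

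Of 20 tested relatives, corepressors and reported targets of NR2E1, 9 rose, 3 fell and 8 did not pass, with a median of 0.18. Cdkn1a, a cell cycle inhibitor gene repressed by NR2E1, rose 2.59-fold from 6.70 ± 0.861 to 17.3 ± 1.22 CPM, whereas Gfap, another reported target, fell as given above. Bcl11a, whose product is a binding partner of NR2E1, rose 3.27-fold from 2.54 ± 0.554 to 8.36 ± 2.08 CPM. The corepressor genes Kdm1a, Hdac3 and Hdac5, named for their role after the values were seen, did not pass, with log2 fold changes of -0.08, -0.05 and 0.06. This list shares 5 genes with the lists above.

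**Figure D5:**
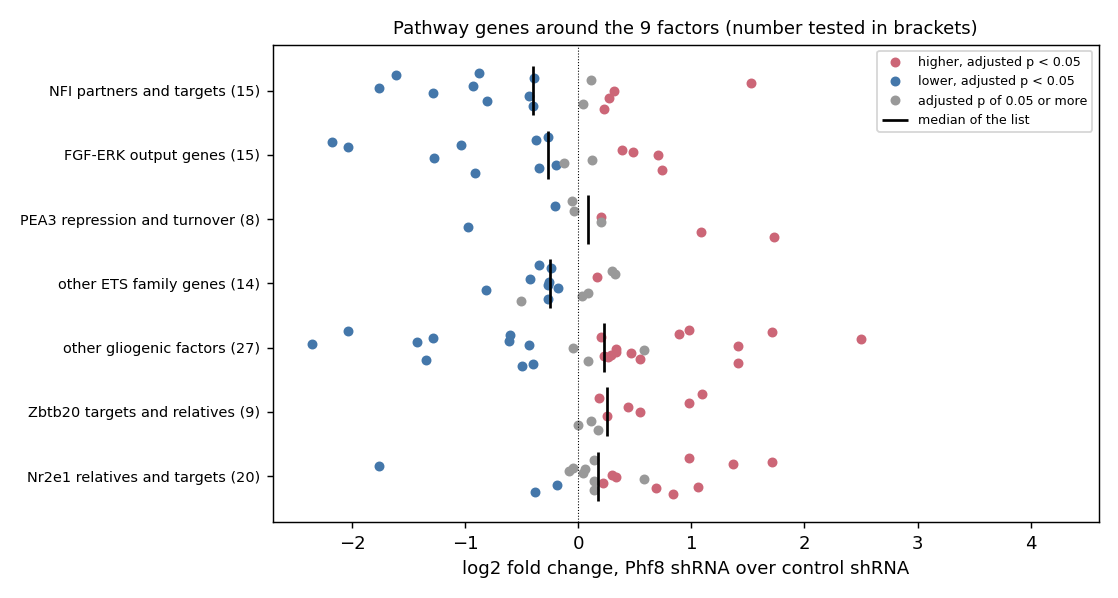
Log2 fold changes of Phf8 shRNA over control shRNA for the tested genes of 7 lists, 1 point per gene, coloured by call, with a black line at the median of each list. The NFI, FGF-ERK and other ETS lists have medians of -0.40, -0.27 and -0.25, the other 4 lists medians from 0.08 to 0.25, and most lists hold points on both sides of 0.

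Markers of other cell types moved in the same libraries. All 10 astrocyte markers examined had at least 1 CPM in both groups, and 2 rose and 7 fell, with summed levels of 9883 to 10166 CPM in control cells and 6291 to 7036 CPM after Phf8 shRNA. Most of that drop was Gfap, which went from 3971 ± 152 to 1172 ± 208 CPM. By contrast, Slc1a2 rose 7.20-fold from 135 ± 0.284 to 975 ± 9.64 CPM. Oligodendrocyte lineage markers, a lineage in which NFI and ETV genes are also transcribed, rose in 11 of 12 cases, and their sum went from 751 to 798 CPM up to 1276.5 to 1322.7 CPM. Of 10 neuron markers, 7 were tested and 6 rose (sum 1133 to 1174 CPM in control, 1853 to 1858.5 CPM with Phf8 shRNA). Most of that sum was Map2, named after its value was seen, at 919 ± 24.0 CPM in control and 1385 ± 7.50 CPM with Phf8 shRNA. Of 8 neural progenitor markers 3 rose and 4 fell (sum 7298 to 7461 CPM in control, 3360 to 3670 CPM with Phf8 shRNA), and all 5 ependymal markers tested fell (sum 174 to 183 CPM in control, 29.7 to 31.0 CPM with Phf8 shRNA), with Tmem212 at 0 reads. Vim held most of the progenitor sum in control and went from 5288.5 ± 137 to 1272.5 ± 115 CPM. The astrocyte, neuron and progenitor sums thus mainly follow their most abundant genes. So does the ependymal sum, with Foxj1 at 139 ± 6.20 CPM in control and 29.0 ± 0.756 CPM with Phf8 shRNA. No marker sum given here measures a cell type. Of 8 microglia markers 7 were under 1 CPM in both groups, with C1qa and C1qb at 0 reads and sums of 3.06 to 3.19 CPM in control and 3.38 to 3.81 CPM with Phf8 shRNA. All 5 fibroblast markers were under 1 CPM, with sums of 0.587 to 0.601 CPM in control and 0.300 to 0.347 CPM with Phf8 shRNA. Of 8 endothelial and mural markers 6 were tested, and 1 rose and 3 fell, with Cdh5 at 0 reads. Their sums were 25.8 to 26.0 CPM in control and 25.9 to 26.0 CPM with Phf8 shRNA. This level sum hides opposite changes. Pdgfrb rose from 9.54 ± 0.0096 to 23.9 ± 0.146 CPM. Acta2 fell from 8.81 ± 0.710 to 0.436 ± 0.192 CPM, Kdr from 4.49 ± 0.0094 to 0.465 ± 0.0360 CPM and Rgs5 from 2.67 ± 0.576 to 0.505 ± 0.136 CPM. The part of these cell types in the changes of the 9 genes was not tested, and in bulk RNA fewer cells of a type cannot be told apart from less RNA per cell.

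For each of the 9 genes, the most similar profiles were sought among 10267 tested genes averaging 5 CPM or more, by the Euclidean distance of log2 CPM centred over the 4 libraries. Closest to Nfia were Gid4 and Gnl3l (distances 0.0076 and 0.015), and closest to Nfib were Kbtbd2 and Cdk12 (0.0064 and 0.0066). Nfic lay beside Tnfrsf21 and Dgkz (0.0054 and 0.019) and Nfix beside Tab1 and Mvd (0.0052 and 0.0094). Zbtb20 was nearest to Zdhhc5 and Hif1a (0.0097 and 0.011), and Etv5 to Srebf1 and Glb1 (0.013 and 0.018). Etv1 was nearest to Adgra1 and Homer2 (0.016 and 0.027) and Nr2e1 to Acy1 and Hes6 (0.034 and 0.041). With 4 libraries such likeness is common: 389 genes lay within 0.1 of Nfia and 1063 within 0.1 of Nfib. Etv4, with few reads, had 0 genes that near, and Fgf12 and Fam181b were closest (0.107 and 0.108).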

How the data were processed

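The submitters' processing notes name HISAT2, HTSeq, DESeq2 and the mm10 build. Versions, annotation release and strand setting were not given in the sources used here. Deposited were whole-number counts of reads for 55421 genes by Ensembl identifier, and their coordinates are printed. No label states the unit, and they were read as raw counts because the values are whole and the totals differ between libraries (36839530 to 44724759). Symbols came from a table of gene names (55154 identifiers matched, and a shared symbol went to the identifier with the most reads), exonic lengths and overlaps from GENCODE M21.

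Groups came from the sample titles. All 4 libraries were fitted with the two-sided quasi-likelihood test of edgeR 4.0.16 in R 4.3.3, without covariates, after filterByExpr and TMM scaling (factors 0.967 to 1.02). A gene was called at a Benjamini-Hochberg adjusted p under 0.05 over all 21042 genes tested, and each SE is the absolute log2 fold change over the root of F. The fit was tested on simulated counts. Alternatives were DESeq2 1.42.0, limma-voom (limma 3.58.1), other scalings, filters and spreads, the replicate number as a block, and leaving out each library. Shares were compared by exact permutation.

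The 9 genes and the 7 gene lists were chosen with earlier results of these data known. Named from each list were up to 4 called genes with the smallest p, and, by profile, the 2 nearest genes to each of the 9 on log2 CPM (prior count 2). Exceptions are marked in the text, and 1 gene that this rule names is not reported here.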

Additional observations from a re-analysis of the deposited data

How the results depend on the processing

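None of the 9 genes changed direction under any of 16 alternatives, and Etv1, Etv4 and Nr2e1 kept their call in 15 of them. Apart from set spreads, Nfia, Nfic, Zbtb20, Etv5 and Phf8 kept theirs in all, and Nfix also passed among genes with at least 1 CPM in 2 libraries (0.12). Upper-quartile scaling raised the share of higher calls to 58.0% and shifted the median of all genes by 0.08. DESeq2 called 3161 genes higher. Leaving out 1 library gave 4038 to 4755 genes higher, 4917 to 5480 lower, 4 to 5 of the 9 higher and 3 to 4 lower. With the biological coefficient of variation set to 0.2, 1262 genes were higher and 2043 lower, 0 of the 9 were lower, and the lists held 7 (NFI), 5 (FGF-ERK), 3 (PEA3 regulators), 1 (other ETS), 11 (other gliogenic factors), 2 (Zbtb20) and 6 (Nr2e1) calls. At 0.4, 172 genes were higher and 639 lower (21.2% higher), 0 of the 9 were called, and the lists held 0, 1, 0, 0, 3, 0 and 0 calls in that order. Without division by exonic length, shares differed by -6.92 points for Nfia, 2.17 for Nfib, 1.58 for Nfic, 3.16 for Nfix, 1.64 for Etv4 and -21.33 for Etv5. The set spreads also used the likelihood ratio test in place of the quasi-likelihood test. For the changes under upper-quartile scaling, DESeq2 and the set spreads, the cause was not tested.

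The replicate block changed no call among the 9 genes (4 higher, 4 lower, with 5202 and 5727 over all genes). Deviations from the group means had a correlation of -0.001 between libraries with the same number. With 2 libraries a group, both pairs give the same value by construction. The labels do not say whether the numbers mark a pairing, and this value cannot settle it. With 2 libraries a group and 146 to 363 reads, Etv4 has the least precise value.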

Other observations

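Zbtb20, Nfib and Nfia, all of which fell, are the 3 longest of the 9 genes, spanning 766722, 415578 and 346141 bases. Among 500 tested protein-coding genes that span 300 kb or more, 50.4% were called higher and 28.6% lower, with a median log2 fold change of 0.21, so these decreases go against the more common direction of genes of their length. Of 7832 protein-coding genes under 30 kb, 20.4% were higher and 35.3% lower, and Etv4 and Nr2e1, which rose, span 15630 and 21670 bases. Of 4088 genes of 30 to 100 kb, 26.3% were higher and 36.2% lower. In that range Etv5, which fell, spans 58411 bases, and Nfic and Etv1, which rose, span 59450 and 91105 bases. Nfix, not called, spans 100469 bases. Of 1689 genes of 100 to 300 kb, 37.1% were higher and 34.3% lower. The members thus did not uniformly oppose the direction of their length.

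The nearest protein-coding genes on either side of the 9 moved in both directions, and those named here were chosen among them after their values were seen. Dgkg, a diacylglycerol kinase gene that lies 28741 bases from Etv5, fell 13.6-fold from 19.9 ± 0.509 to 1.45 ± 0.311 CPM (SD, n = 2), a far larger change than that of Etv5. Celf5, an RNA-binding protein gene 3591 bases from Nfic, rose 2.44-fold from 2.02 ± 0.0210 to 4.94 ± 0.411 CPM. Dhx8, 2383 bases from Etv4, had a log2 fold change of 0.01 ± 0.06 (SE) and did not pass, and Trmt1, 67 bases from Nfix, rose from 29.6 ± 1.03 to 36.5 ± 1.06 CPM. Gap43, the neuronal growth gene that is the nearest coding neighbour of Zbtb20 on its lower side at 535229 bases, fell 2.09-fold from 29.2 ± 1.57 to 14.0 ± 0.527 CPM.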
